A study of Homo sapiens with 6 samples.

Results

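The N-myc downstream regulated gene (NDRG) family was examined in head and neck squamous cell carcinoma (HNSCC) cells under hypoxia and normoxia. The family was taken as the genes whose symbol in the deposited table is NDRG1, NDRG2, NDRG3 or NDRG4, which gave 4 of 21776 genes. Their Entrez numbers in the table are 10397, 57447, 57446 and 65009, respectively. The libraries are labelled SCC25, an established line of human oral squamous carcinoma cells with a wild-type (WT) genotype, grown in DMEM/F12 with 10% fetal bovine serum. Hypoxic cells were kept for 12 h at 1% O2 and 5% CO2 with the balance N2, and normoxic cells were kept in air with 5% CO2. Each condition has 3 libraries, with totals of 30186813, 36076088 and 32272716 counted reads for the hypoxia replicates in numerical order. The normoxia replicates had totals of 37278703, 29637189 and 29981208. The legend of the study names SCC9 for this experiment, another established oral line, whereas the labels were followed here. All libraries come from 1 cell line, and no label says that replicates were separate cultures, so p-values measure only the spread between these libraries, which may be technical.

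NDRG proteins have an α/β-hydrolase fold but are not known to act as enzymes. NDRG1 is a cytoplasmic stress-response protein, known for its induction by low oxygen, by iron chelation and by growth arrest, and for its repression by N-MYC and MYC, which gave the family its name. NDRG1 loss causes a hereditary demyelinating neuropathy, and in tumors the gene has been described both as a suppressor of metastasis and as a marker of poorly oxygenated tissue. NDRG2 is abundant in astrocytes and muscle and is often silenced in carcinomas, NDRG3 is a protein that prolyl hydroxylase and VHL degrade in the presence of oxygen and that lactate binding stabilizes, and NDRG4 is found mainly in heart and brain.

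The identity of the cells was checked by markers before the family was described. Of 8 squamous epithelium genes in the table, SFN, the 14-3-3 sigma gene, had the highest mean FPKM in both conditions, although CDH3 lay above it in hypoxia replicate 2, and their summed level was 328 to 335 FPKM under hypoxia and 309 to 330 FPKM under normoxia (reads scaled by gene length and by library total). Of the 7 tested, 4 were higher under hypoxia (CDH3, PERP, KRT17 and DSG3), TP63 did not pass, and 2 were lower, KRT5 and SFN itself, which went from 158 ± 2.01 to 93.5 ± 5.35 FPKM (SD, n = 3). Among all 14255 genes tested, 39.2% were higher and 38.5% lower by the same test, so marker calls in either direction were common. KRT14, a keratin of the basal layer, had only 1 read in all 6 libraries, so this defining marker was nearly undetected in these counts. Whether its reads were lost in counting was not tested. Markers of tissues in which NDRG2 and NDRG4 are usually abundant ranged from at or near 0 to clearly expressed. Neither of the 2 cardiac and skeletal muscle markers in the table reached a testable level, MBP was the only glial marker tested, at 2.71 to 3.42 FPKM, and the neuron markers SNAP25, RBFOX3 and STMN2 were not analysed here. The other 3 neuron markers, ENO2, TUBB3 and SYT1, were all higher under hypoxia, and their sum was 203 to 212 FPKM against 74.5 to 96.8 FPKM, with most of the hypoxic sum from ENO2, which also encodes a glycolytic enzyme. Of the fibroblast markers, COL1A1 was higher under hypoxia, at 3.08 ± 0.35 FPKM against 0.624 ± 0.20 FPKM (SD, n = 3), and the list summed to 2.96 to 3.96 FPKM against 0.516 to 0.959 FPKM. Of the leukocyte and endothelial markers, CDH5 was higher and CD68 did not pass the test, while PTPRC, CD3E and LYZ were at or near 0. PECAM1, the other endothelial marker, was too low to be tested, with 5, 9 and 10 reads under hypoxia and 2, 0 and 0 under normoxia. The part of these markers in the levels of the NDRG genes was not tested.

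Because 3 of the 4 genes were higher under hypoxia, promoter windows were searched for the core of the hypoxia response element, the short sequence that HIF dimers bind. The windows run from 250 bases before to 50 bases after a transcript start and came from RefSeq (GRCh38.p14), which gave windows for NDRG2 and NDRG4. The promoters of NDRG1 and NDRG3 were not searched. The letters searched were ACGTG and GCGTG on both strands, read as CACGT and CACGC on the other strand. ACGTG also lies within CACGTG, the E-box that MYC and its partners bind, which was searched separately. For each gene the window with the most matches is printed (for NDRG2, 1 of 3 windows with 1 match each, another of which overlaps it and shares its match) 5′ to 3′ on the strand of the gene, with the matches in capitals. NDRG4 is at chr16:58463465-58463764 on the plus strand, and NDRG2 at chr14:21025056-21025355 on the minus strand.
NDRG4: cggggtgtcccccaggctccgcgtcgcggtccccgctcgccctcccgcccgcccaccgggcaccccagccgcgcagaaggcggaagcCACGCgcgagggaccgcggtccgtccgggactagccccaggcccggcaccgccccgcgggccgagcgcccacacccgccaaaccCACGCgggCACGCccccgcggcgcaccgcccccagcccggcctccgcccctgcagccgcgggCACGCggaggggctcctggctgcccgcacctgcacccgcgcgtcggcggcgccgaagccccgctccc
NDRG2: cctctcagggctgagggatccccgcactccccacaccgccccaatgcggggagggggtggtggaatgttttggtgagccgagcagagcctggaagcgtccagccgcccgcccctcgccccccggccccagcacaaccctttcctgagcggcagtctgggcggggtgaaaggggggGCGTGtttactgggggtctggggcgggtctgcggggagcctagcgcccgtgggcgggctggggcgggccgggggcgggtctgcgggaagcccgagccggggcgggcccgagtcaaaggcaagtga
The NDRG4 window held 4 matches and the NDRG2 window 1 match. The other 3 NDRG4 windows held none, the other 4 NDRG2 windows held 1, 1, 0 and 0 matches in no particular order, and none of the 9 windows held an E-box. Of 35116 promoter windows of the same length, 48.4% held at least 1 match, 4.4% held 4 or more, and 7.26% held an E-box. The NDRG4 window is rich in G and C (83.0%), and of the 924 windows with a G and C content of at least 80%, 6.28% held 4 or more matches. These shares count single windows, whereas the printed NDRG4 window was picked from 4 as the one with the most matches. A match describes letters only, and binding was not measured here.

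NDRG1 was the family member with the largest response. NDRG1 had 275026, 390979 and 345182 reads in the hypoxia libraries (replicates 1, 2 and 3) and 6078, 4017 and 12097 reads in the normoxia libraries. On the CPM scale, reads relative to the TMM-adjusted library total, the level was 9007, 10512 and 10638 CPM under hypoxia and 163, 140 and 409 CPM under normoxia. The conditions were far apart, and even the lowest hypoxia library lay 22.0-fold above the highest normoxia library. The means were 10052 ± 907 CPM and 238 ± 149 CPM (SD, n = 3), and the log2-fold change was 5.40 (edgeR's quasi-likelihood test, adjusted p = 2.62e-11, standard error 0.30), a 42.3-fold increase. Normoxia replicate 3 lay at 2.69 times the mean of the other normoxia libraries. Without that library the log2-fold change was 6.03, and without normoxia replicate 2 it was 5.13. In bulk RNA, a change in the number of expressing cells and a change in RNA per cell cannot be told apart.

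**Figure D1:**
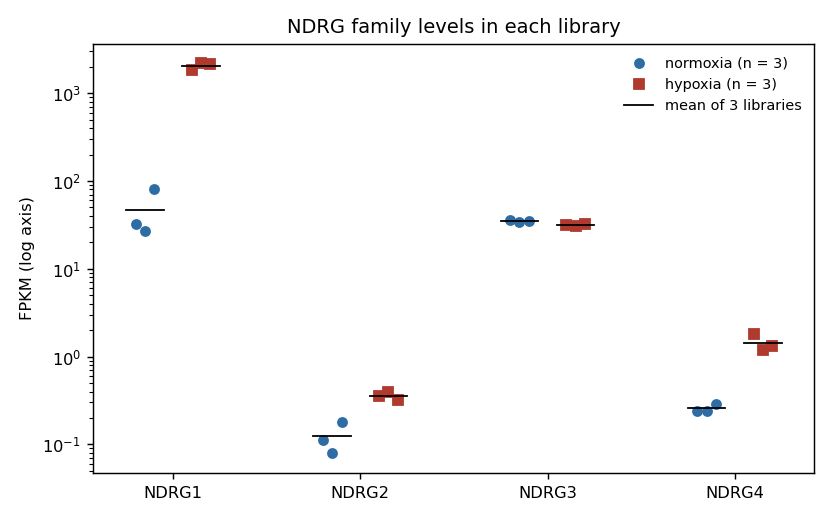
Level of each NDRG gene in the 6 libraries, in FPKM on a log axis, with 1 point per library and a bar at the mean of the 3 libraries of a condition. NDRG1, NDRG2 and NDRG4 are higher in all 3 hypoxia libraries, whereas NDRG3 lies between 30.8 and 35.9 FPKM in all 6.

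The spread of NDRG1 under normoxia was shared by other genes. Normoxia replicate 3 was the highest of the normoxia libraries for 60.7% of the 2840 genes that were higher under hypoxia with a log2-fold change over 1, compared with 37.2% of all 14255 genes tested. EGLN3, the oxygen-sensing prolyl hydroxylase that is itself a known HIF target, was at 2.16, 1.33 and 3.91 FPKM under normoxia, with replicate 3 again the highest. Why this library lay higher was not tested.

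NDRG1 was among the most abundant messages of the cell under hypoxia. The gene took 0.911%, 1.08% and 1.07% of all counted reads in the hypoxia libraries, and 0.0163%, 0.0136% and 0.0403% in the normoxia libraries. By read number it stood at ranks 5, 5 and 4 among all genes in the hypoxia libraries, below EEF1A1, which encodes the elongation factor that brings tRNA to the ribosome, and the mitochondrial genes COX2, ND4 and, except in replicate 3, COX1. In the normoxia libraries its ranks were 1265, 1553 and 372. Per length, its rank moved from 1991, 2301 and 746 under normoxia to 27, 18 and 19 under hypoxia. By log2-fold change NDRG1 stood at position 64 of 14255 genes. By the absolute gain in CPM it stood first of 21776 genes, with 9815 CPM, ahead of EEF1A1 with 4730 CPM, ND4 with 2829 CPM, SCD (a desaturase of fatty acid synthesis) with 2780 CPM and FTH1 (the ferritin heavy chain) with 2581 CPM. The gain of NDRG1 stayed the first when any single library was left out, at 9522 to 10337 CPM.

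NDRG4 and NDRG2 were also higher under hypoxia, at levels far below NDRG1. NDRG4 was at 1.81, 1.20 and 1.33 FPKM in hypoxia replicates 1 to 3, from 260, 206 and 204 reads. Under normoxia it was at 0.242, 0.241 and 0.287 FPKM, from 43, 34 and 41 reads. The conditions were clearly apart, at 6.78 ± 1.55 CPM and 1.24 ± 0.12 CPM (SD, n = 3). The log2-fold change of NDRG4 was 2.44 (edgeR's quasi-likelihood test, adjusted p = 1.15e-08, standard error 0.21), a 5.44-fold increase, and it lay at 2.24 to 2.57 when single libraries were left out. NDRG2 was at 0.353, 0.396 and 0.322 FPKM in hypoxia replicates 1 to 3, from 41, 55 and 40 reads. Under normoxia it was at 0.111, 0.0789 and 0.182 FPKM, from 16, 9 and 21 reads. The conditions did not overlap either, but the lowest hypoxia library was only 1.74-fold above the highest normoxia library in CPM, which was again replicate 3. Its log2-fold change was 1.48 (edgeR's quasi-likelihood test, adjusted p = 0.00172, standard error 0.37), a 2.78-fold increase that rests on these few reads.

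NDRG3 was the only member with a lower level under hypoxia, and the difference was small. NDRG3 was at 31.3, 30.8 and 32.2 FPKM in hypoxia replicates 1 to 3, from 3449, 4047 and 3789 reads. Under normoxia it was at 35.9, 34.4 and 34.7 FPKM, from 4878, 3715 and 3791 reads. The replicates lay so close together that the conditions did not overlap. The log2-fold change was -0.20 (edgeR's quasi-likelihood test, adjusted p = 0.00199, standard error 0.052), so that hypoxia left 0.870 times the normoxic level. The size depended on the filter on low counts. It was -0.12 (adjusted p = 0.0329 by the same test) when at least 10 counts were required in every library and -0.24 (adjusted p = 0.00015) with no filter, settings that shifted the shared genes by a median of 0.077 and -0.041. The oxygen- and lactate-dependent step described for NDRG3 acts on its protein, which was not measured.

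All 4 genes passed edgeR's filter on low counts. Against the whole table, 3 of the 4 genes passed an adjusted p of 0.05 as higher and 1 as lower by edgeR's quasi-likelihood test. Among the 14255 genes tested, 39.2% were called higher and 38.5% lower, 77.8% in either direction, so that passing the test alone was common. With a log2-fold change beyond 1 also required, NDRG1, NDRG2 and NDRG4 remained among the 19.9% of genes called higher, and NDRG3 was not among the 10.5% called lower. None of the 4 genes overlapped between the conditions, as was the case for 40.6% of genes in the higher and 39.9% in the lower direction, 80.5% in all. An exact permutation test of each gene alone gave p = 0.1 for all 4, which is the smallest value that 3 against 3 libraries allow. By log2-fold change, NDRG4 stood at position 813, NDRG2 at 1903 and NDRG3 at 8580, and the median of all genes was 0.023.

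**Figure D2:**
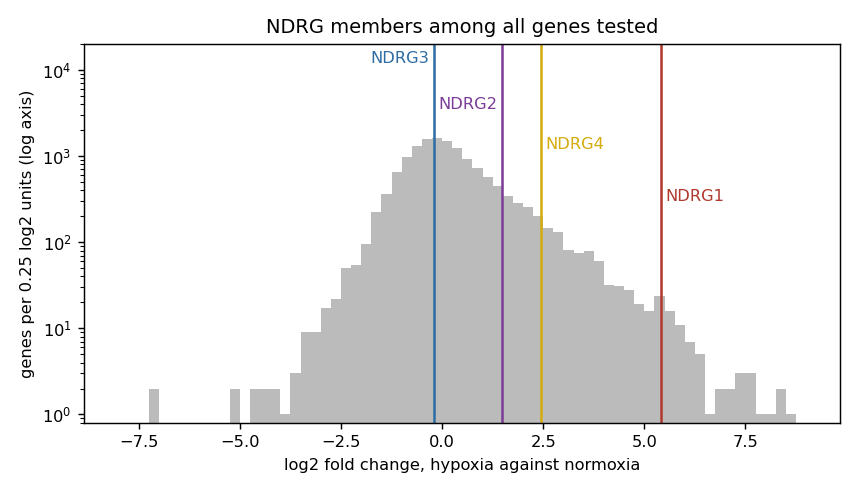
Distribution of the log2-fold change (hypoxia against normoxia) over the 14255 genes tested, with the number of genes per bin on a log axis and a line for each NDRG gene. NDRG1 (5.40) lies in the right tail, NDRG4 (2.44) and NDRG2 (1.48) on the right flank and NDRG3 (-0.20) near the centre.

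The deposited FPKM, made from the same reads, were tested with limma on log2(FPKM + 1), a scale that understates the change of low genes. NDRG1 differed by 5.58 (standard error 0.31, adjusted p = 5.24e-08) and NDRG3 by -0.15 (standard error 0.044, adjusted p = 0.00872) in this limma fit of 10976 genes, of which 8875 passed. NDRG2 and NDRG4 had a mean of under 1 FPKM and were left out by the filter on low values. Without that filter their differences were 0.27 and 0.95 on this scale.

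The composition of the family was then compared per gene length within each library. The 4 genes summed to 1865, 2211 and 2184 FPKM under hypoxia and to 69.0, 61.9 and 116 FPKM under normoxia. Under normoxia NDRG1 and NDRG3 shared most of the family's messages, with 53.7 ± 14.0% and 45.8 ± 13.9% (SD, n = 3). NDRG1 held 47.5%, 44.0% and 69.8% in the 3 normoxia libraries, and it lay below NDRG3 in replicates 1 and 2 and above it in replicate 3, so their order per length was not resolved under normoxia. By reads, which are not scaled by gene length, NDRG1 lay above NDRG3 in all 3 normoxia libraries. Under hypoxia NDRG1 held 98.4 ± 0.17% and NDRG3 1.52 ± 0.15%, although the level of NDRG3 itself had changed little. NDRG4 went from 0.329 ± 0.074% to 0.0707 ± 0.023% of the family, and NDRG2 from 0.148 ± 0.018% to 0.0172 ± 0.0022%, while the level of each gene was higher under hypoxia. The shares did not overlap between the conditions for any of the 4 genes (p = 0.1 each by exact permutation, two-sided, which is the lowest attainable, and adjusted p = 0.1 over 4 shares). Among single genes tested, 80.5% did not overlap in CPM, and the 4 shares depend on each other.

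**Figure D3:**
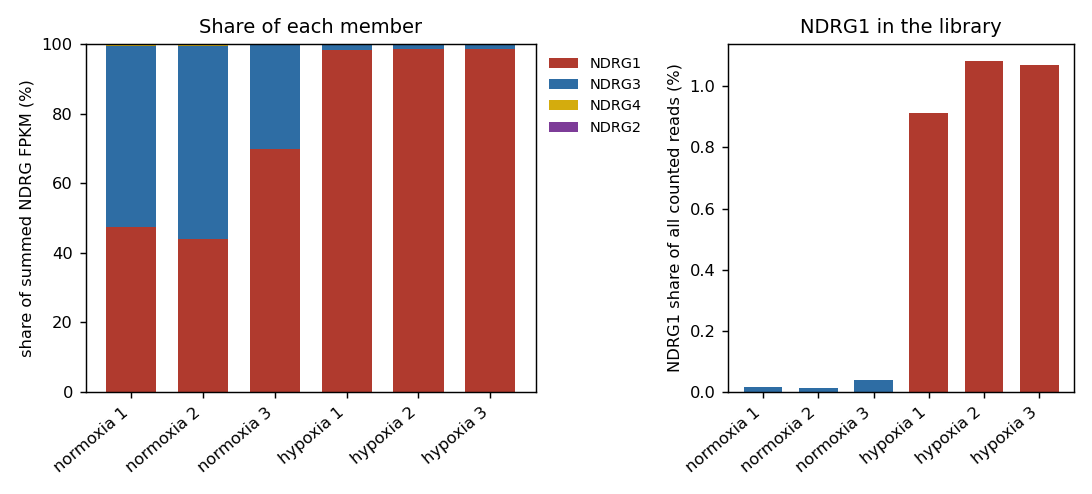
Share of each NDRG gene in the summed FPKM of the 4 genes, in percent (left), and share of NDRG1 in all counted reads, in percent (right), with 1 bar for each of the 6 libraries. On the left NDRG1 takes 44.0% to 69.8% under normoxia and nearly all under hypoxia, and on the right it goes from at most 0.0403% to at least 0.911%.

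The responses of the members were compared by the log2 ratio of their FPKM in each library, where the library size cancels out. The ratio of NDRG1 to NDRG3 was 5.77 higher under hypoxia, that of NDRG1 to NDRG2 was 4.01 higher, and that of NDRG1 to NDRG4 was 3.14 higher. NDRG2 relative to NDRG3 was 1.76 higher, and NDRG3 relative to NDRG4 was lower, with a difference of -2.63. For these 5 pairs the conditions did not overlap (p = 0.1 each by exact permutation, two-sided, and adjusted p = 0.12 over 6 pairs). The ratio of NDRG2 to NDRG4 differed by -0.87 and its values overlapped narrowly between the conditions, from -2.36 to -1.60 under hypoxia and from -1.61 to -0.66 under normoxia (exact permutation test, p = 0.2, adjusted p = 0.2). The responses of these low genes were thus not told apart over all 6 libraries. Without normoxia replicate 2 the ratio differed by -1.11 and no longer overlapped (adjusted p = 0.1 by the same test).

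The genes that surround the family in known pathways were read from lists, with hypoxia-inducible factor (HIF) first. The counts of each list stand beside 39.2% of all tested genes called higher and 38.5% called lower. HIF is a dimer of an oxygen-labile α subunit and ARNT, and it induces NDRG1 in many cell types. Of 4 subunit genes tested, 3 were higher (EPAS1, ARNT and ARNT2) and HIF1A was lower, with a list median of 1.01 against 0.023 for all genes. HIF1A was at 19.0, 15.1 and 14.5 FPKM under hypoxia and at 72.3, 75.1 and 77.9 FPKM under normoxia. The conditions were widely separated, with a log2-fold change of -2.26 (edgeR's quasi-likelihood test, adjusted p = 2.08e-13, standard error 0.082). EPAS1, which encodes HIF2α, was at 48.6, 54.3 and 51.6 FPKM under hypoxia and at 17.8, 17.9 and 20.9 FPKM under normoxia, a 2.64-fold increase without overlap. Thus the order of the α subunit messages per length was opposite in the 2 conditions, with HIF1A above EPAS1 under normoxia and below it under hypoxia in every library. ARNT rose by 0.61, ARNT2 by 2.26 from a mean of 0.111 FPKM, and HIF3A had 1 read in total.

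Among 13 tested genes of oxygen sensing and lactate handling, the steps described for the NDRG3 protein, 6 were higher, 6 were lower and 1 did not pass, with a median of -0.051. EGLN3 rose to 228, 279 and 277 FPKM in the hypoxia libraries, a log2-fold change of 6.69, and EGLN1, the gene of the prolyl hydroxylase reported to act on NDRG3, rose by 1.49. VHL, the substrate receptor of the ubiquitin ligase, differed by -0.05 (edgeR's quasi-likelihood test, adjusted p = 0.408), and EGLN2 had only 5 reads in total. Whether reads of EGLN2 were lost in counting was not tested. LDHA, the lactate dehydrogenase subunit that favours lactate formation, rose by 0.47, and LDHB, its counterpart, fell by 0.50. The lactate exporter SLC16A3 rose by 1.01, while the transporters SLC16A1 and SLC16A7 fell by 0.65 and 0.82. Of the kinases reported to act downstream of lactate-stabilized NDRG3, BRAF (0.65) and MAPK3 (0.79) were higher and ARAF (-0.43) was lower.

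The MYC network contains the repressors after which the family is named. Of 11 tested genes 6 were higher and 5 lower, with a median of 0.53. MYC had 1306, 1048 and 1091 reads under hypoxia and 9315, 7317 and 7708 under normoxia, so the conditions were far apart. Its log2-fold change was -2.88 (edgeR's quasi-likelihood test, adjusted p = 1.3e-13, standard error 0.10). MXI1, a MAX partner that opposes MYC, went the other way, with 3524, 4988 and 4261 reads under hypoxia and 275, 211 and 290 under normoxia. Its log2-fold change was 3.96 (edgeR's quasi-likelihood test, adjusted p = 3.61e-15, standard error 0.095). The other MAX or MLX partners that pair against MYC were mostly higher, with MXD4 at 1.66, MNT at 1.42 and MXD1 at 1.01, and MXD3 lower at -0.56. MYCL rose by 1.59 and ZBTB17, a partner through which MYC represses genes, by 0.53, whereas MAX (-0.56), MGA (-0.55) and MLX (-0.39) were lower. MYCN was not analysed here.

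**Figure D4:**
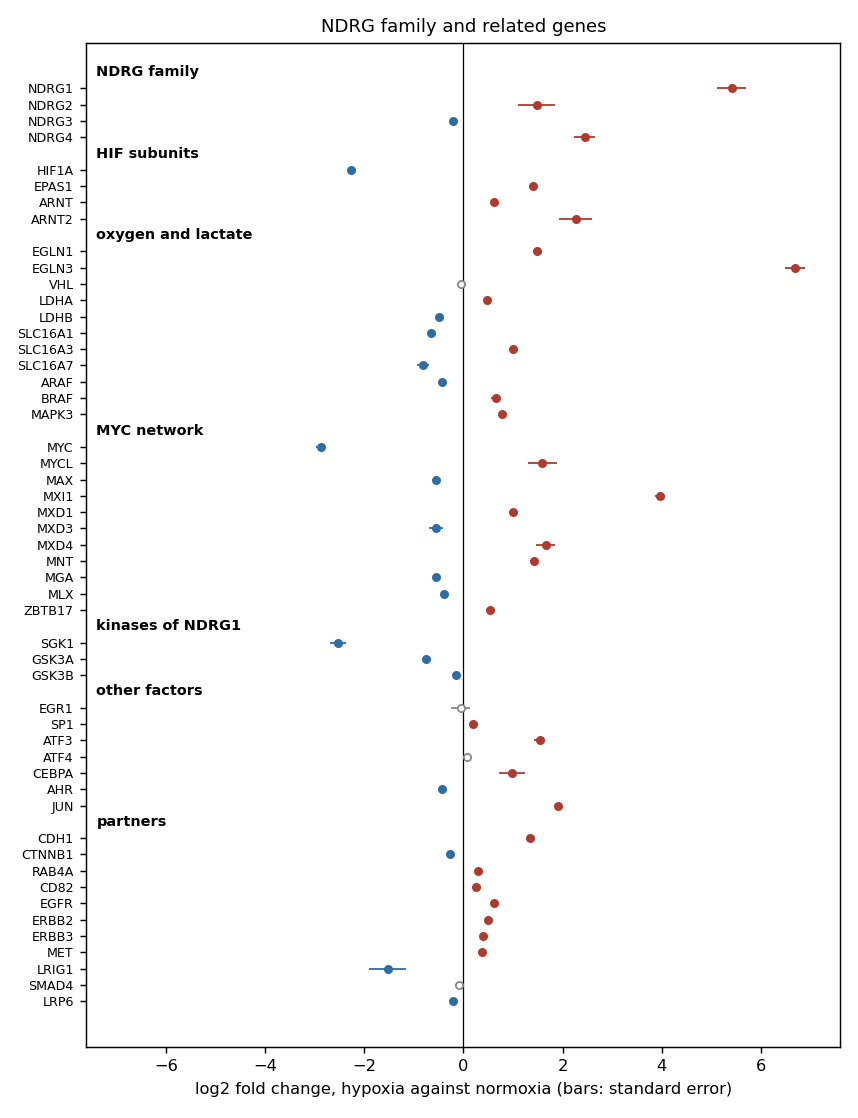
Log2-fold change (hypoxia against normoxia) of the 4 NDRG genes and tested genes of the 6 pathway lists, with bars for the standard error, red for genes called higher, blue for lower and open grey for not passed. HIF1A (-2.26), SGK1 (-2.53) and MYC (-2.88) lie farthest to the left, and EGLN3 (6.69), NDRG1 (5.40) and MXI1 (3.96) farthest to the right.

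All 3 tested kinases that phosphorylate NDRG1 were lower, with a median of -0.75, beside 38.5% of all genes tested that were called lower. SGK1, the glucocorticoid-induced kinase that primes NDRG1 for GSK3, had 49, 74 and 59 reads under hypoxia and 355, 295 and 342 under normoxia. Its log2-fold change was -2.53 (edgeR's quasi-likelihood test, adjusted p = 1.48e-10, standard error 0.16). GSK3A fell by 0.75 and GSK3B by 0.15, and the call of GSK3B was lost without hypoxia replicate 3 (adjusted p = 0.0548) as well as under a minimum of 10 counts per library (adjusted p = 0.219, both by edgeR's test). SGK3 had 4 reads in total, and whether its reads were lost in counting was not tested. SGK2 was not analysed here. Phosphorylated NDRG1 was not measured.

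Of 8 other transcription factors that have been reported at the NDRG1 gene, 5 were higher, 1 was lower and 2 did not pass, with a median of 0.17. The stress-induced factors JUN and ATF3 had log2-fold changes of 1.90 and 1.54, from 10.1 ± 0.33 to 39.2 ± 6.31 FPKM and from 2.72 ± 0.20 to 8.17 ± 0.98 FPKM (SD, n = 3). CEBPA rose by 0.98 and SP1 by 0.19. Between 4 and 5 genes of this list were called higher when single libraries were left out. AHR, the aryl hydrocarbon receptor, fell by 0.43. EGR1 differed by -0.05 (adjusted p = 0.812) and ATF4 by 0.08 (adjusted p = 0.165), both by edgeR's quasi-likelihood test. With a minimum of 10 counts per library ATF4 was called higher, at 0.16 (adjusted p = 0.00818 by edgeR's test).

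Of 12 genes whose proteins NDRG1 is reported to bind or to regulate, 8 were higher, 3 were lower and 1 did not pass, with a median of 0.34. CDH1, the epithelial cadherin whose recycling involves NDRG1, rose from 37.9 ± 2.45 to 99.7 ± 1.88 FPKM (SD, n = 3), a log2-fold change of 1.35. The receptor tyrosine kinase genes rose by less, with EGFR at 0.61, ERBB2 at 0.49, ERBB3 at 0.39 and MET at 0.37. RAB4A (0.30) and CD82 (0.25) were also higher, and the call of RAB4A was lost without normoxia replicate 1 (adjusted p = 0.0562 by edgeR's test). LRIG1, a negative regulator of receptor kinases, fell by 1.53 at a mean of 0.192 FPKM under normoxia, and CTNNB1 fell by 0.27. LRP6, a Wnt co-receptor, fell by 0.21, and its call was lost without hypoxia replicate 3 (adjusted p = 0.0615) and under a minimum of 10 counts per library (adjusted p = 0.0797, both by edgeR's test). SMAD4 differed by -0.09 (adjusted p = 0.195 by edgeR's test). Counted over all 6 lists, 47 of 51 tested genes passed the test, 28 (54.9%) higher and 19 (37.3%) lower, beside 39.2% and 38.5% of all genes tested.

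Genes with a course like that of each member were found by the Euclidean distance between centred log2 CPM values over the 6 libraries, among 14254 genes. These genes were chosen for their likeness, so their fold changes are a description. The closest to NDRG1 were LOC101927401 (distance 0.419), PPFIA4 (0.448), GPR146 (0.471), LINC02783 (0.495) and HCAR2 (0.693), which encodes a receptor for ketone bodies and niacin. PPFIA4, a liprin gene, was at 4.47, 4.52 and 3.94 FPKM under hypoxia and at 0.0446, 0.0510 and 0.156 FPKM under normoxia, so normoxia replicate 3 was the highest there as well. Although close in course, these genes lay far below NDRG1 in level. The closest to NDRG4 were LOC102725065 (0.294), the potassium channel gene KCNQ1, FGFBP1, the ceramide synthase gene CERS4 and CES3 (0.386). The closest to NDRG2 were LOC105375798 (0.217), UBAC2-AS1, ZNF497, C1RL-AS1 and WDFY3-AS2 (0.284). NDRG3 had the nearest neighbours of the 4, with GGH (0.0375), FSTL1, FBXO31, the late endosome GTPase gene RAB7A and the cyclophilin gene PPIA (0.0488), all of which changed little.

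**Figure D5:**
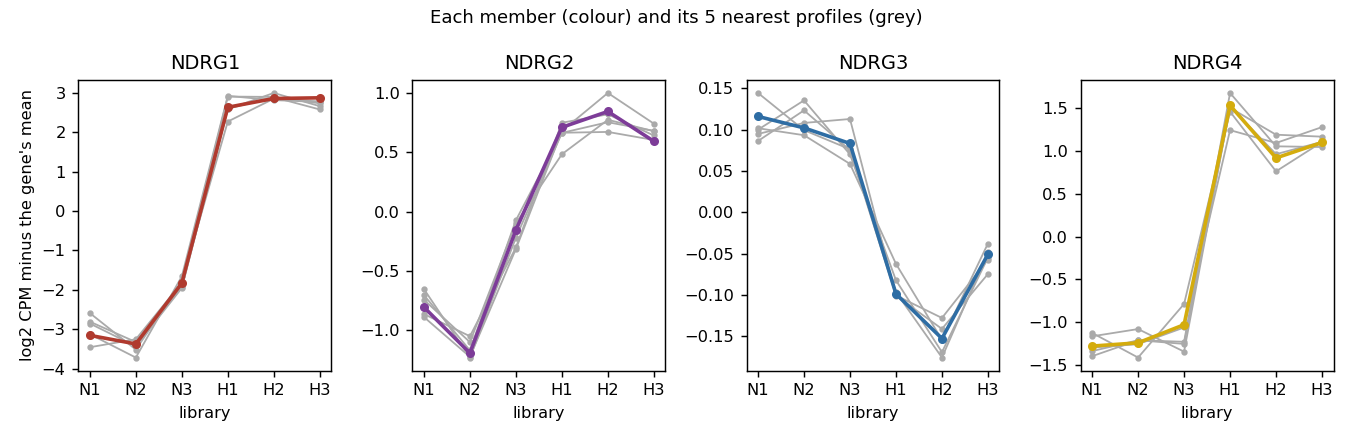
Centred log2 CPM of each NDRG gene and of the 5 genes closest to it in each of the 6 libraries, with 1 panel per member. N and H mark the normoxia and hypoxia libraries, the vertical scale differs between the panels, and the lines only join the values of a gene. In the NDRG1 panel, normoxia replicate 3 is the highest normoxia library for all 6 genes.

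Neighbouring genes and shared sequence were examined because it is not stated whether the counting used the strand. NDRG1 shared none of its 10154 31-base words with transcripts of other genes. The gene beside it, CCN4, a secreted matricellular protein, had 37, 46 and 66 reads under hypoxia and 0, 0 and 5 under normoxia, a log2-fold change of 4.72 (edgeR's quasi-likelihood test, adjusted p = 5.72e-06, standard error 0.68). NDRG2 lies in a crowded region and shared 5.13% of its 8603 words with other genes. Of the 441 shared words 206 were shared with TPPP2, the gene with the most, which overlaps it on the opposite strand over 236 exon bases. NDRG2 itself had 9 to 55 reads per library, and the contribution of overlapping transcripts to them was not tested. ARHGEF40, which overlaps NDRG2 without shared exon bases, was higher by 1.19, RNASE7 by 0.67 and the flanking ZNF219 by 0.62. NDRG3 shared 4.61% of its 3297 words with other genes and NDRG4 0.209% of its 10516, and no words were shared between members. Beside NDRG3 and NDRG4, DSN1 (log2-fold change -0.63) and SETD6 (-0.71) were lower.

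The functional annotation deposited with the counts was compared between the members. NDRG1 and NDRG4 carried 23 Gene Ontology terms each, NDRG2 19 and NDRG3 7, and only 2 terms, cytoplasm and signal transduction, were common to all 4. The term "cellular response to hypoxia" was carried by NDRG1 but by no other member. The term was looked up after the values had been seen. Of its 87 tested genes, 48 (55.2%) were higher, 30 were lower and 9 did not pass the test, with a median log2-fold change of 0.36. Among all genes tested, 39.2% were called higher and 38.5% lower, with a median of 0.023. NDRG1 was the third of the genes with the term by log2-fold change and the first by gain in CPM.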

How the data were processed

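RNA was sequenced from 3 hypoxia and 3 normoxia libraries, grouped by their labels. The authors deposited counts, the whole number of reads per gene for 21776 genes, without normalization, and beside them FPKM. For 21775 genes the deposited FPKM follow from the counts, a single gene length and the library total (tolerance 0.1%). The aligner, the counting tool and the use of strand are not given in the sources used here. The submitters' processing notes name only the mouse builds GRCm38 and mm10, although the symbols and Entrez numbers are human, so no gene coordinates were taken from the files.

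Testing of the counts used edgeR 4.0.16 (R 4.3.3; quasi-likelihood F test, TMM, filterByExpr, condition as the only term) over 14255 genes, with Benjamini-Hochberg adjustment at 0.05. The standard error is the size of the log2-fold change divided by the square root of F. Log2 CPM used a prior count of 2. FPKM were tested with limma 3.58.1 on log2(FPKM + 1) where the mean reached 1 FPKM. The members, lists and tests were chosen with earlier results of these data known. Named were the 4 members, the genes of the lists, the 5 genes closest to each member, and neighbouring or overlapping genes (GENCODE v29, used for gene order and transcripts only). Some list genes are counted but not reported here by name. The genes ranked around NDRG1 by reads or by gain in CPM and the hypoxia term were added after their values were seen.

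Alternatives were edgeR with size factors of DESeq2 1.42.0, that tool's own Wald test, other filters on low counts, a replicate block, a log2-fold change beyond 1, each library left out, and for FPKM a pseudocount of 0.1 and no filter. In simulated counts with the same group sizes edgeR found 198 of 200 changed genes among 14207 (6.16% of its calls false) and DESeq2 194 of 200 (5.83% false). On simulated FPKM limma found 163 of 163 among 10967 (7.39% of its calls false). The simulation gave all genes the same dispersion and left the lowest genes unchanged. It also changed far fewer genes than the 11090 called in the data. These rates therefore check the code and do not measure the error of the calls reported here. The replicate libraries differed by more than sampling noise, with a chi-square of 5.11 to 11.5 per gene, and each was counted once.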

Additional observations from a re-analysis of the deposited data

How the results depend on the processing

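The direction of all 4 NDRG genes was the same under every alternative run, and the only call lost was that of NDRG3 (-0.20) when a log2-fold change beyond 1 was also required. That threshold left 4338 of the 11090 called genes, 2840 higher and 1498 lower, so that 65.5% instead of 50.5% of the calls were higher, and it left 17 of the 47 genes of the pathway lists. NDRG2 gave no value with at least 10 counts in every library, since it did not pass that filter. Over the filters on low counts, 9967 to 11920 genes were called. The DESeq2 Wald test called 10859 genes and gave log2-fold changes of 5.41, 1.49, -0.20 and 2.45 for NDRG1 to NDRG4. When single libraries were left out, the ranges were 5.13 to 6.03 for NDRG1, 1.25 to 1.82 for NDRG2, -0.23 to -0.18 for NDRG3 and 2.24 to 2.57 for NDRG4, with 10669 to 11390 genes called. Libraries of the same replicate number did not deviate together (correlations of 0.018, -0.069 and 0.0012), so the numbers were not taken as pairs. A fit with the replicate block gave 5.57 for NDRG1, -0.20 for NDRG3 and 2.44 for NDRG4, called 10875 genes and lost no call of a member. Depth limits NDRG2 most, with 9 reads in its lowest library.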
